A study of Mus musculus with 6 samples.

Results

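ATP-binding cassette (ABC) transporter genes were examined in B16F10 cells, an established line of mouse melanoma cells. The members were the genes whose symbol consists of Abc, a subfamily letter from a to g, a number and at most 1 further letter. They were 50 of the 27179 genes in the table, with 16 in subfamily A, 10 in B, 10 in C, 4 in D, 1 in E, 3 in F and 6 in G. Family genes with other symbols (Tap1, Tap2 and Cftr) are outside this rule. RNA was sequenced from 3 samples given 0.01% ozonated olive oil (OZO) and 3 given 0.01% olive oil (OLO), each for 6 h in medium with serum. Both groups are labelled as wild type (WT). For each gene the values used here hold 1 average over all 6 libraries of both groups, as the authors computed it, so the levels describe the cells across both oils and give no difference between OZO and OLO. The separate libraries of a group are not analysed here. No level therefore carries an error or a test, and the study describes the replicates as independent experiments, which the labels do not detail. In these bulk samples, fewer cells of a type and less RNA per cell cannot be told apart.

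ABC proteins bind and hydrolyse ATP through nucleotide-binding domains that share a Walker A motif, a loop that holds the phosphates of the nucleotide. In subfamilies A, B, C, D and G these domains are joined to membrane-spanning domains and power the movement of lipids, sterols, peptides, drugs, glutathione conjugates, heme precursors or fatty acyl-CoA across membranes. Members of E and F have no membrane-spanning domain and act on ribosomes and translation. In tumour cells, melanoma included, the family is best known for drug efflux.

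The Walker A motif was searched as codons in the coding sequence of each member, since the nucleotide-binding domain carries it, as do many other proteins that bind ATP or GTP. The search asked in the reading frame for a glycine codon, 4 codons of any kind, a glycine codon, a lysine codon and a serine or threonine codon. It read the coding strand alone. At least 1 copy was found in 48 of the 50 members, against 4.19% of the 22527 coding genes of the annotation. All 16 members of A and all 10 of C held 2 copies, and so did the single member of E and all 3 of F. All 4 members of D held 1 copy, while B was split into 5 members with 1 copy and 5 with 2. Abcg3 and Abcg8 held no match, which says only that these letters are not in their coding sequence. For 1 well expressed member of each subfamily, the first copy is shown on GRCm38 (the mm10 build), from the annotated transcripts of GENCODE release M21. Capitals mark the fixed bases of the 2 glycine codons and of the lysine codon.
Abce1, chr8:79701828-79701851, minus strand, exon 5: GGaactaatggtattGGaAAgtca
Abcf2, chr5:24573769-24574182, minus strand, across exons 3 and 4: GGcttaaatggaattGGaAAgtcc
Abcd3, chr3:121769539-121769562, minus strand, exon 17: GGtccaaacggctgtGGaAAgagc
Abcb1b, chr5:8824527-8824550, plus strand, exon 12: GGcaacagtggctgtGGaAAaagc
Abcc5, chr16:20389396-20389419, minus strand, exon 12: GGcagtgtgggaagtGGaAAaacc
Abca5, chr11:110306288-110306311, minus strand, exon 12: GGccacagtggaacaGGaAAaagc
Abcg2, chr6:58663648-58663671, plus strand, exon 3: GGacccacaggcggaGGcAAgtct
The 7 stretches share the capital bases by construction. Among members of the transporter subfamilies with a match, coding length went with the number of copies. Members of D, with 1 copy, had 606 to 741 codons and the G members with 1 copy 646 to 666. Abcg3 and Abcg8, without a match, had 650 and 673 codons. Members of C, with 2 copies, had 1325 to 1588 and those of A 1620 to 5034, the last of them Abca13. In B, the 5 members with 1 copy, among them Abcb6, Abcb8, Abcb9 and Abcb10, had 715 to 842 codons and the 5 with 2 copies 1255 to 1321. Abce1 and the F members carried 2 copies in only 599 to 837 codons.

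Levels are given as CPM, read counts scaled to the depth of the library, and for comparisons between genes as CPM per kb of the longest annotated transcript. Of the 50 members, 48 had at least 1 read in some library (96.0%), against 77.8% of all genes in the table. At or above 1 CPM there were 28 members (56.0%), against 43.7% of all genes and 53.8% of the coding genes, so the share was close to that of coding genes in general. At or above 10 CPM there were 22 members (44.0%), against 32.3% of all genes. At or above 100 CPM there were 6 of the 50 members, against 2463 of the 27179 genes and 2446 of the 20787 coding genes. The median of the family was 2.19 on the log2 CPM scale, higher than 63.3% of all genes, where the median was -1.49. All members are coding genes, and over the 20787 coding genes the median was 1.11, with reads in 84.4% and 41.4% at or above 10 CPM. The depth behind these levels can be read from the genes without reads, and 1 CPM stood for 19.6 reads per library on geometric average.

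Levels differed widely between and within subfamilies. The median level per length was 120 CPM per kb for the single E gene and 61.8 for F. It was 3.54 for B, 2.74 for D, 0.827 for A, 0.130 for C and 0.0296 for G. Several of these medians fall in gaps and rest on few genes. No B gene lies between Abcb9 at 0.249 and Abcb10 at 6.82 CPM per kb, and the B median was 6.82 without Abcb5, which had no reads. Likewise no A gene lies between Abca13 at 0.138 and Abca8a at 1.52, and no C gene between Abcc12 at 0.0490 and Abcc2 at 0.212. Exon-union lengths lowered the level per kb by 1.5 times or more in 12 members, which were Abca4, Abca12, Abcb1b, Abcb4, Abcb8, Abcb9, Abcc1, Abcc5, Abcc8, Abcd3, Abcd4 and Abce1. The order E, F, B, D, A, C, G was kept with exon-union lengths. Subfamilies hold between 1 and 16 genes and genes are not replicates, so the order is a description and was not tested. Together the 4 genes of E and F made up 55.1% of the summed CPM per kb of the family, and Abce1, Abcf2 and Abcf1 alone made up 52.1%. None of these is a drug efflux pump of the plasma membrane.

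**Figure D1:**
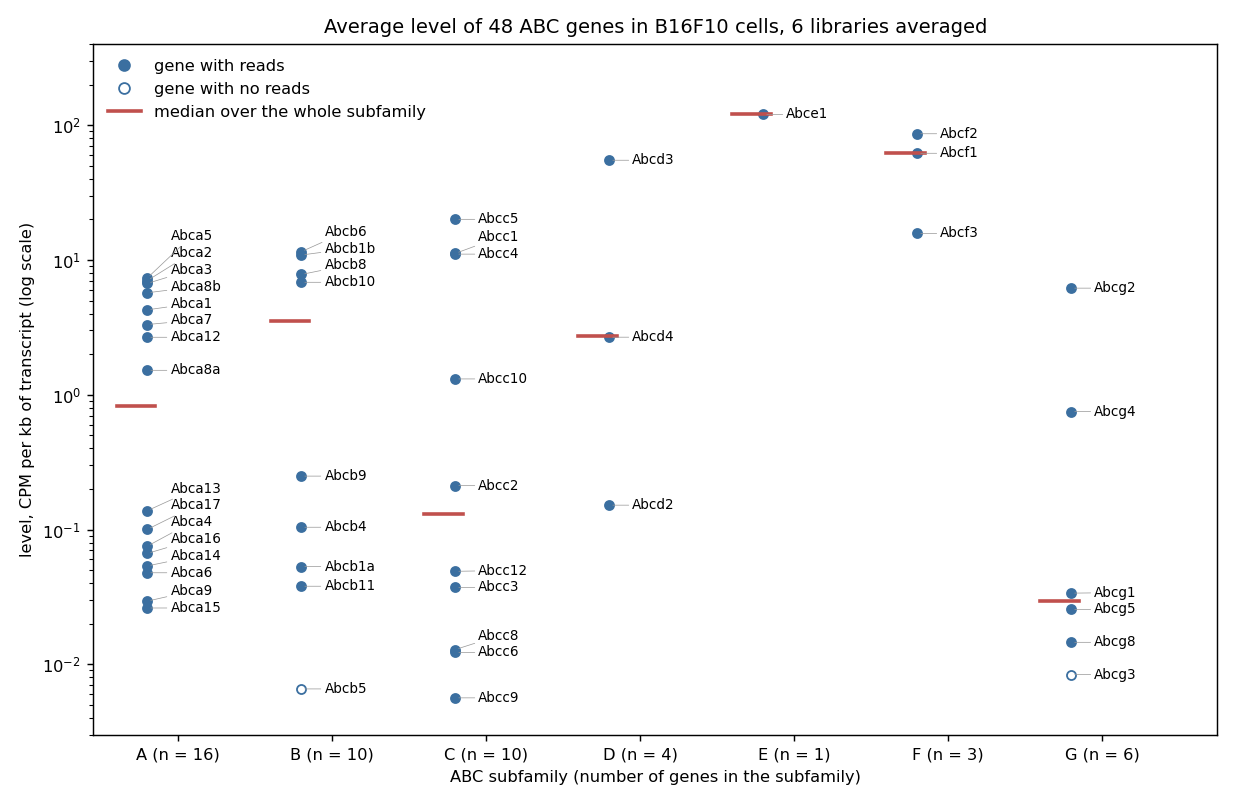
Average level of 48 ABC genes in CPM per kb of transcript (log axis), by subfamily. Points are genes, red lines are medians over all genes of a subfamily, and open points are the 2 genes with no reads, whose position is set only by the 0.5 reads added to every count. The E and F genes lie between 15.7 and 120 CPM per kb, and the lowest subfamily median is that of G at 0.0296.

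Abce1, a factor that splits ribosomes apart after translation ends, was highest per kb of the longest transcript. Its average was 456 CPM, or 120 CPM per kb, above 98.4% of the 23882 genes with a length. It lies on chr8:79683462-79711740 on the minus strand. On that scale Abcf2 had 86.3 CPM per kb and Abcf1, which binds the initiation factor eIF2, with 61.8, while Abcf3 was lower at 15.7. With exon-union lengths Abce1 had 75.9 and Abcf2 86.3 CPM per kb, so the order of these 2 depended on the length used. The 7 listed genes of ribosome recycling and translational stress had a median of 45.0 CPM per kb and all were above 1 CPM. Among these the release factor Etf1 was highest at 176 CPM per kb and the kinase Eif2ak4 lowest at 10.4. Per kb of the longest transcript, Abce1 lay between the release factors Etf1 and Gspt1 (85.8 CPM per kb).

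Organelle transporters of D and B covered a wide range. Abcd3, the abundant transporter of the peroxisome membrane that takes up branched-chain and dicarboxylic acyl-CoA, had 54.9 CPM per kb. Abcd2, a peroxisomal transporter of very long-chain acyl-CoA, had 0.152. Abcd4, which serves the release of cobalamin from lysosomes, had 2.67. Per kb of the longest transcript, Abcd3 stood above all 4 listed peroxisome partners, which ran from 8.97 CPM per kb for Pex3 to 28.7 for Hsd17b4. With exon-union lengths Abcd3 had 29.0 and Abcd4 1.23 CPM per kb.

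The B members Abcb6, Abcb8 and Abcb10, which are known from mitochondria, were all above 10 CPM. Abcb6, linked to porphyrin transport, had 11.5, Abcb8 had 7.80 and Abcb10, which supports heme synthesis, had 6.82 CPM per kb. Of the 150-base windows of Abcb6, 58.7% also occur in Gm29253, an overlapping annotated gene on the same strand, so its reads could be split or lost and its level is uncertain. Listed partners in iron-sulfur and heme synthesis had a median of 12.0 CPM per kb, with Nfs1 highest at 19.4. In 7 of these 8 genes the level was above 1 CPM. The exception was Glrx5 at 0.0427 CPM per kb. The lysosomal peptide transporter Abcb9 stood below these transporters at 0.249 CPM per kb.

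Among the drug and bile transporters of the plasma membrane, Abcb1b and Abcg2 were the members of B and G above 10 CPM. P-glycoprotein, the multidrug efflux pump, is encoded in mice by Abcb1a and Abcb1b, whose coding sequences were 87.7% identical, the closest pair among all pairs within subfamilies. Abcb1b had 10.9 CPM per kb and Abcb1a 0.0531, a ratio of 205, which was 121 with exon-union lengths. Of the 150-base windows of their longest transcripts, 5.15% of those of Abcb1b and 4.41% of those of Abcb1a were identical between both genes, so a read from such a window could belong to either. Abcb4, which moves phosphatidylcholine into bile and neighbours them, had 0.104 CPM per kb, and Abcb11, the bile salt export pump, had 0.0379. Abcb5, known in human melanoma as a marker of a subset of cells with stem-like traits, had no read in any of the 6 libraries. Abcg2, which exports drugs, urate and porphyrins, had 35.3 CPM and 6.18 CPM per kb. Its closest relative within the subfamily, Abcg3, had no reads.

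Subfamily C, which holds the multidrug resistance proteins, covered a wide range of levels. Abcc5, an exporter of nucleotide analogues and cyclic nucleotides, was highest with 116 CPM and 20.005 CPM per kb. Abcc1, which exports glutathione conjugates and oxidised glutathione, had 11.2, and Abcc4, which exports cyclic nucleotides and prostanoids, had 11.0. These last values lay close together, and no error is known for them. With exon-union lengths Abcc1 had 5.03 and Abcc4 9.88 CPM per kb, so their order depended on the length used. Abcc10 had 1.31 CPM per kb and Abcc2, the conjugate pump of bile canaliculi, had 0.212. The table pairs the Ensembl identifier of Abcc2 also with the predicted gene Gm10768, so its reads may be split. Abcc12 had 0.0490 and Abcc3 0.0372 CPM per kb. Abcc6, Abcc8 and Abcc9 were each under 0.1 CPM. Abcc8 and Abcc9 encode the sulfonylurea receptors, which need a potassium channel subunit as partner, and these subunits were also weak, with Kcnj11 at 0.0868 and Kcnj8 at 0.0306 CPM. The genes listed for glutathione synthesis and conjugation, which supplies substrates of Abcc1, had a median of 34.3 CPM per kb, from 0.162 for Gsta4 to 303 for Gstp1, and 5 of the 6 were above 1 CPM.

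Lipid transporters of subfamily A held 9 genes at or above 1 CPM. Abca5 had 60.5 CPM and 7.35 CPM per kb, and Abca2 had 7.03, Abca3, known for lipid storage in lung surfactant bodies, 6.695 and Abca8b 5.71 CPM per kb. Abca1, which loads cholesterol onto apolipoprotein A-I, had 4.26, Abca7 had 3.32, Abca12, known for lipid secretion in keratinocytes, had 2.67 and Abca8a 1.52. Abca13, the longest member, reached 2.21 CPM but only 0.138 CPM per kb over its transcript of 16011 bases. The retinal transporter Abca4 and Abca17, Abca16, Abca14, Abca6, Abca9 and Abca15 were all below 1 CPM, between 0.0262 and 0.1003 CPM per kb. Of the sterol exporters in G, Abcg4 had 0.750 CPM per kb and Abcg1 0.0337. Cholesterol efflux partners ran from 0.242 CPM per kb for Apoa1 to 331 for Apoe, with a median of 13.2 over 10 genes and 7 of them above 1 CPM. The receptor Nr1h2, a sterol sensor that controls Abca1 and Abcg1, had 11.9 CPM per kb and its relative Nr1h3 had 0.459.

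Family genes with other symbols spanned a wide range. Tap1 and Tap2, which bring peptides into the endoplasmic reticulum for presentation, had 1.10 and 0.690 CPM per kb, and Cftr, a chloride channel of epithelia, had 0.0692 CPM.

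The labelled cell type was checked against marker genes. All 8 melanocyte markers were above 1 CPM, from Sox10 at 109 CPM to Dct at 7052 CPM. Of the markers of other cells, 2 of 5 for fibroblasts (Pdgfra at 3.28 and Col1a1 at 1.70 CPM), 1 of 5 for leukocytes (Lyz2 at 1.78 CPM) and 1 of 3 for endothelium (Pecam1 at 1.21 CPM) were above 1 CPM. None of the 4 keratinocyte markers was, with at most 0.0367 CPM and Krt5 at no reads. Abca12, known from keratinocytes, stood at 24.4 CPM beside these keratinocyte markers. The part of other cells in any ABC level was not tested.

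Of the 50 members, 21 lie within 200 kb of another member, in 8 groups. The highest level per kb was 10 times the lowest or more in 4 groups and under 3 times in the other 4, with either length. Among the groups under 3 times, only Abcc5 and Abcf3 had levels above 1 CPM. Abcg5, Abcg8, Abcc6 and Abcc8 had 0.0534 to 0.0628 CPM, where the reads added to every count and the transcript length weigh on the ratio. Abca14, Abca15 and Abca16 had 0.140 to 0.338 CPM. The longest run is on chromosome 11, where Abca8b, Abca8a, Abca9, Abca6 and Abca5 follow each other on the minus strand from 109932190 to 110337716. Their levels were 5.71, 1.52, 0.0294, 0.0478 and 7.35 CPM per kb in that order, so Abca8b and Abca5 at the ends were highest and Abca9 and Abca6 lowest. Abca8a and Abca9 are 69.7% identical in coding sequence and 4771 bases apart. On chromosome 5, Abcb1b had 10.9 CPM per kb between Abcb1a at 0.0531 and Abcb4 at 0.104. Abca17 and Abca3 on chromosome 17 are 882 bases apart and point away from each other, with 0.1003 and 6.695 CPM per kb. By contrast, Abca14, Abca15 and Abca16 on chromosome 7 were all low, at 0.0537, 0.0262 and 0.0665 CPM per kb. Abcc5 and Abcf3 on chromosome 16 had 20.005 and 15.7 CPM per kb, and 10.9 and 13.7 with exon-union lengths. Of the 50 members, 27 are overlapped by some annotated gene on either strand, 4 of them by a coding gene. Strand use in counting is not given in the sources used here, so reads of such pairs could be shared.

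**Figure D2:**
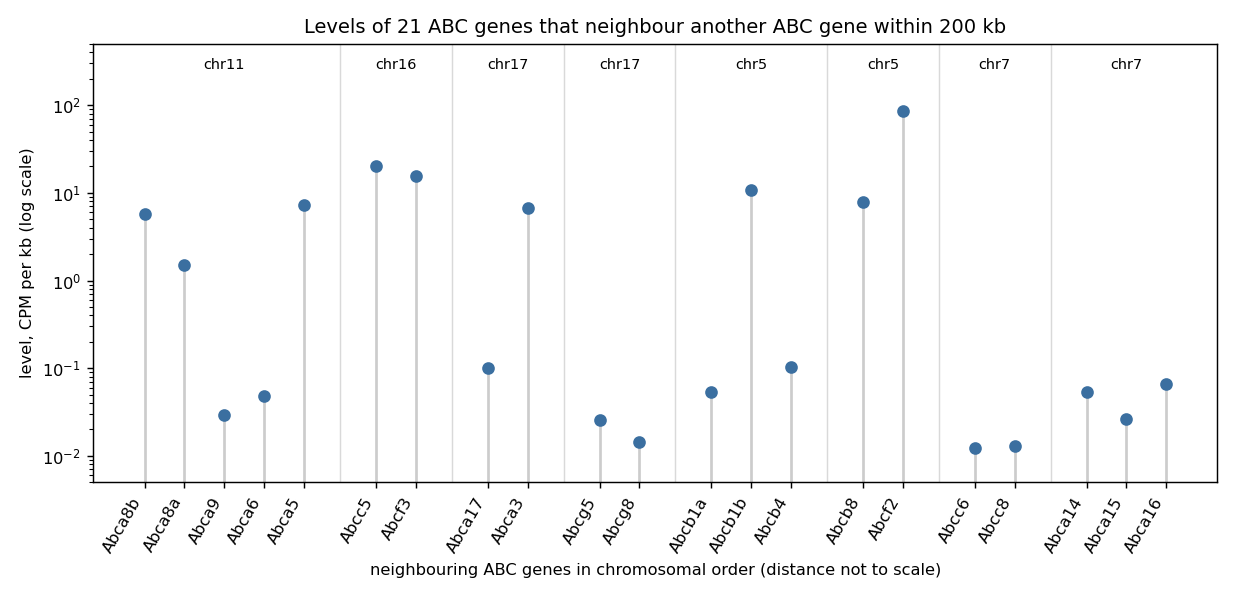
Level in CPM per kb of transcript (log axis) of the 21 ABC genes with another ABC gene within 200 kb, in chromosomal order within each of the 8 groups. Points are genes and vertical lines only guide the eye. In the group of 5 on chromosome 11 the outer genes reach 5.71 and 7.35 CPM per kb while Abca9 and Abca6 lie under 0.05.

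Weak members carried few reads, and these could be bounded. Because 0.5 is added to every count before averaging on the log scale, the average of a weak gene fixes the product of (2 x reads + 1) over the 6 libraries, which came out as an odd whole number for each of the 24 weakest members. Abcb5 and Abcg3 had a product of 1, which means no read in any library. For Abcc9 the product was 21, so it had either 3 reads in 1 library and 1 in another, or 10 in a single library. For Abcg8 the product of 85 allows 8 and 2 reads in 2 libraries or 42 in 1 library. Abcg5 had a product of 171 and between 11 and 85 reads in all, in at most 3 libraries. These last genes encode the paired sterol transporter of liver and gut, lie head to head on chromosome 17 and overlap by about 6.71 kb.

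The same products bound how unevenly the reads lay over the libraries. In Abcg8 at least 1 library held 8 reads or more, at least 12.3 times the geometric mean of the other 5 libraries when 0.5 reads are added to each, and in Abcg5 at least 1 held 9 or more, at least 12.2 times the others. Which library this was, and whether it was the same for both genes, cannot be read from an average. For Abca6 the ratio was at least 3.66. Abcb1a, with at least 7 reads in 1 library and at least 30 in all, had a bound of only 1.55. These reads are not scaled for library size. A ratio of 2 or more was forced in 12 of the 15 members with a product under 10000000 (80.0%). The share was close, at 80.6%, over the 7642 genes of the table in that range. Under a product of 1000, where Abcg8 and Abcg5 lie, such a ratio was forced in all 5 members and 90.9% of 4611 genes.

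**Figure D3:**
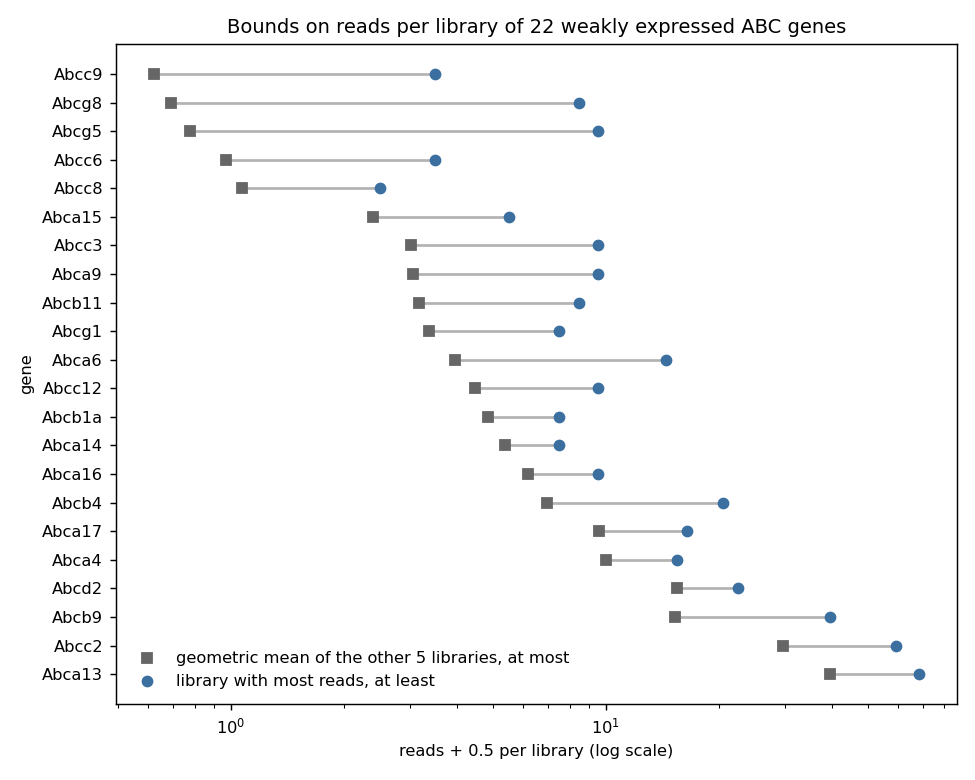
Bounds on reads per library, as reads + 0.5 on a log axis, for the 22 weak ABC genes with reads, weakest at the top. Circles give the least that the library with most reads can hold, and squares the most that the geometric mean of the other 5 libraries can be. The gap is widest for Abcg8 and Abcg5, at least 12.3 and 12.2 times.

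Promoters of genes used in most tissues are often rich in CpG, the dinucleotide at which DNA is methylated, so the CpG count was set beside the level. RefSeq promoter windows on GRCm38.p6, reaching from 250 bases before to 50 bases after the start, matched 38 of the 50 members by gene identifier. In the 22 members at or above 1 CPM the median was 20.5 CpG (range 1 to 45), and in the 16 below 1 CPM it was 12.5 (range 2 to 23). The windows of Abcb1a and Abcc12 lie 92986 and 14096 bases from the annotated gene start, and without these 2 the lower group had a median of 14.5 and 9 of 14 with at least 10 CpG. At least 10 CpG were found in 17 of the 22 and in 9 of the 16. Over all genes with a window, taking the first listed, the medians were 22 CpG for 9373 genes at or above 1 CPM and 4 for 9085 genes below. Across the 38 members Spearman's rho between CpG count and CPM per kb was 0.58 (0.56 without these 2 genes), given as a description over genes that share the same libraries. The letters counted were CG, which reads the same on both strands, and 85.3% of all genes at or above 1 CPM and 26.9% of those below held at least 10. The 250 bases before the start are shown 5′ to 3′ along the gene for Abce1, the member with most CpG (Abcd3), the expressed gene Abcg2 at the annotated start nearest to its first base, and Abcb5 without reads, with CpG in capitals.
Abce1, chr8:79711741-79711990, minus strand: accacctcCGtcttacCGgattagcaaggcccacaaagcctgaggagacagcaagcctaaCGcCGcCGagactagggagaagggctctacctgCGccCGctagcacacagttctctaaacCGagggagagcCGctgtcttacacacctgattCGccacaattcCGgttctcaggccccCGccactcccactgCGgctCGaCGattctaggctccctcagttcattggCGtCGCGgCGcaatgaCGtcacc
Abcd3, chr3:121815303-121815552, minus strand: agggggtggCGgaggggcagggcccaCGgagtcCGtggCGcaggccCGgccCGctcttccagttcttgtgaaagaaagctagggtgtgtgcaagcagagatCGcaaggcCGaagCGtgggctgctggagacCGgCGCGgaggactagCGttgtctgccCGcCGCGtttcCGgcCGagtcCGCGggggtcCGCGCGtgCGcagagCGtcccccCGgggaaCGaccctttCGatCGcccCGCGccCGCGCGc
Abcg2, chr6:58584283-58584532, plus strand: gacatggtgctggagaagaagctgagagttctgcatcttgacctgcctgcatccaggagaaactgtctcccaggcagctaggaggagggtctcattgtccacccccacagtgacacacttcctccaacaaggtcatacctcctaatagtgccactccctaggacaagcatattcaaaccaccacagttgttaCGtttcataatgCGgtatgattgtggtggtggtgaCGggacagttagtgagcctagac
Abcb5, chr12:118966422-118966671, minus strand: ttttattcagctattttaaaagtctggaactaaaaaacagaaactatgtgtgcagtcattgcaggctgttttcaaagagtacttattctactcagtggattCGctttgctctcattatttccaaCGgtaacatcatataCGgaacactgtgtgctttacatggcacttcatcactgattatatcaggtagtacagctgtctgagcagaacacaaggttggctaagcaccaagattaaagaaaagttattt
The printed stretches hold 20, 34, 3 and 3 CpG in that order. Abcg2 has 3 annotated windows, with 3, 10 and 28 CpG at 10, 12149 and 56023 bases from its first base, and which of these starts was used in these cells is not known. Methylation was not measured.

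**Figure D4:**
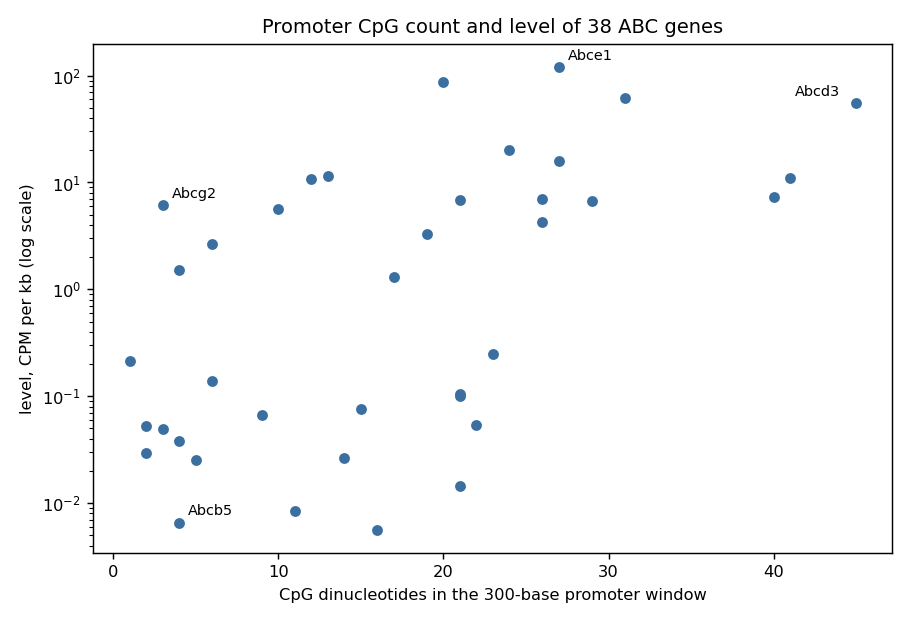
CpG count in the 300-base promoter window and level in CPM per kb (log axis) of the 38 ABC genes with a window. Each point is a gene. Members with more than 23 CpG all lie above 4 CPM per kb, whereas those with fewer are spread from the floor to 86.3 CPM per kb.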

How the data were processed

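Total RNA of B16F10 cells (3 OLO and 3 OZO samples) was made into libraries with a directional kit. According to the methods and the labels, the authors aligned reads to mm10 with HISAT2 (version 2.1.0), counted them with featureCounts (2.1.1) and used limma-voom (3.58.1). The deposited value used here is the authors' average log2 CPM per gene over the 6 libraries, with 0.5 reads added to each count. The other value columns hold the authors' own comparison of OZO against OLO (log2 fold change, statistic, p-values) and were not used, so no test was made between groups. The members and lists were chosen with earlier results of these data known.

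Genes without reads (6025 of 27179) share the lowest average, which gave a geometric mean scaled library size of 19641945 reads. The depth of each library is unknown, and no interval was formed. The average above this lowest value gave the product of (2 x reads + 1) over the libraries. Products within 0.05 of an odd whole number were accepted, which held for 100% of 6973 weak genes with a product under 1000000 and for 100% of the 1574 genes between 1000000000 and 1000000000000. Above that limit 54.8% passed, so products there, Abcg4 included, were not used. On simulated counts of 27179 genes this recovered 100% of 16935 products. The bounds on reads held in 100% of 300 genes, which follows by arithmetic once the product is right and is no separate check. Lengths, positions and coding sequences came from GENCODE M21 on GRCm38, which matched 23882 rows and all 50 members. Coding sequences were aligned globally with Biopython 1.88 (match 1, mismatch -1, gap opening -4, extension -0.5). Members named with values were the 3 highest per subfamily, those at or above 1 CPM and the lowest with reads. Others were named after their values were seen. The values of 2 members are not reported here, although counts, medians and shares include them. Alternatives were other CPM limits, exon-union lengths, members with reads, removal of the added 0.5 reads and inclusion of Tap1, Tap2 and Cftr. Python 3.11.15, numpy 2.4.6, pandas 2.3.3, scipy 1.17.1 and matplotlib 3.10.9 were used.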

Additional observations from a re-analysis of the deposited data

How the results depend on the processing

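No paired analysis was possible because each gene has a single mean across libraries. For this reason leaving out each replicate, another normalization and a count model were not run. With exon-union lengths the median CPM per kb was 0.735 for A, 2.61 for B, 0.119 for C, 1.84 for D, 75.9 for E, 44.3 for F and 0.0245 for G. Without genes that had no reads it was 6.82 for B and 0.0337 for G. With the added 0.5 reads taken off it was 0.824 for A, 3.53 for B, 0.126 for C, 2.73 for D and 0.022 for G. The order of the subfamilies was the same under the other length and without the added reads. Over members with reads, the family median was 2.94 on the log2 CPM scale and lay above 56.4% of genes with reads. With a limit of 10 reads per library, 31 members passed in place of 48 with any read. The limit was set on the geometric mean of reads + 0.5, less the added 0.5. The count at or above 1 CPM, 28, was 32 at 0.5 CPM, 27 at 2 CPM and 30 with Tap1, Tap2 and Cftr. Using the promoter window with most CpG, chosen after the values were seen, Spearman's rho was 0.66, and it was 0.56 with windows within 1 kb of the gene start, also chosen later. Levels under 1 CPM rest on fewer than 19.6 reads per library on average, and near the floor the level per kb depends on gene length, as in Abcc9, which had reads but a lower CPM per kb than Abcb5 without any.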
